A study of Mus musculus with 36 samples.

Results

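Bone morphogenetic protein (BMP) signaling was followed in mouse submandibular salivary glands through 10 genes, chosen by name and found as 10 of the 29219 genes counted. They are the ligands Bmp2, Bmp4 and Bmp7, the type I receptor Bmpr1a and the type II receptor Bmpr2, the response genes Id1, Id2 and Id3, and the inhibitory Smads Smad6 and Smad7. Single-cell mRNA was counted by Drop-seq, in which cells are caught in droplets with barcoded beads and each captured transcript is counted by its unique molecular identifier (UMI). The 26 libraries, 1 per gland, were taken at postnatal day 40 (P40; 6 control, 7 double-mutant) and at P90 (6 control, 7 double-mutant), from female and male mice. All mice were C57BL/6 and carried K14-Cre, a Cre recombinase driven by the keratin 14 promoter of basal epithelial cells, and the Cre-inducible R26 EYFP reporter. Double mutants carried, besides these, a β-catenin gain-of-function allele and floxed loss-of-function alleles of Bmpr1a, and develop squamous cell carcinoma of the gland. The recombinase is driven in epithelium, so the design does not aim at fibroblasts, vessels or immune cells. Recombination was not measured here. Viable cells were sorted and fixed in methanol before capture, and RNA of 4 further glands at P70 (CITE-seq, 2 per genotype) and bulk mRNA of single undissociated glands (1 control, P70, and 1 double mutant, P100) were also counted.

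BMP ligands are secreted dimers that bring type I and type II receptors together, and the activated type I receptor phosphorylates Smad1, Smad5 and Smad9, which enter the nucleus with Smad4. Id1, Id2 and Id3 are classical direct targets that block basic helix-loop-helix transcription factors and hold cells undifferentiated, and Smad6 and Smad7 are targets that feed back on the receptors. In salivary glands the pathway takes part in branching and duct formation, and other type I receptors can act beside Bmpr1a.

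The regulatory sequence upstream of the genes gives context for the measurements, so the 250 bases before the annotated start are shown for Id2, which fell in the gland sums scaled by TMM, and for Bmp4 and Smad6, which rose. The sequences are those of RefSeq on GRCm38.p6, read on the coding strand from 5′ to 3′. For these 3 genes the RefSeq start was also the start of the GENCODE gene model used for counting. For Id3, Bmpr1a and Bmpr2 it lay 325, 795 and 879 bases inside the longer GENCODE model, so that their windows lie within that model and are described without being shown. Capitals mark GGCGCC, a GC-rich word that Smad1 and Smad5 bind in known BMP response elements. The Id2 window lies at chr12:25096093-25096342, the Bmp4 window at chr14:46390670-46390919 and the Smad6 window at chr9:64022060-64022309, all on the minus strand.
Id2: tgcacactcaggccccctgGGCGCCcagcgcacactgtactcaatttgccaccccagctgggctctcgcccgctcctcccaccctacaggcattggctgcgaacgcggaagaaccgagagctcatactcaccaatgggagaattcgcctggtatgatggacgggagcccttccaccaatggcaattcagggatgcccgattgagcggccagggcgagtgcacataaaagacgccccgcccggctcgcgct
Bmp4: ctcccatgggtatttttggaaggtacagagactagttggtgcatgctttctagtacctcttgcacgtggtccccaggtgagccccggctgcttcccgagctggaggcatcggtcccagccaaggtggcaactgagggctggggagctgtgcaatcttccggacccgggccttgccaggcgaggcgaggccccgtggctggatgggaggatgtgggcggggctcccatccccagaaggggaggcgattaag
Smad6: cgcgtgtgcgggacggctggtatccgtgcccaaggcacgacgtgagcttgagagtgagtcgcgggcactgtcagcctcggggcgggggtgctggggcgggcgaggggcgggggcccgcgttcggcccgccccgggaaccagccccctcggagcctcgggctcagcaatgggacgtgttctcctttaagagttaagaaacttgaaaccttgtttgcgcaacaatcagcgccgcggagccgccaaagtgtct
The Id2 window held 1 GGCGCC, starting 231 bases before the start, and the Bmp4 and Smad6 windows held none. RefSeq windows were matched for 6 of the 10 genes, of which Bmpr1a (198 bases before the start) and Bmpr2 (105 bases) also held 1 and Id3 held none. GGCGCC, which is its own reverse complement, occurred in 9.59% of 32851 mouse promoter windows of the same length. The 6 windows held 62.8% to 78.8% G and C, against a median of 52.4% over all windows. The background was not matched for this, so these shares do not show whether the word is more frequent here. CAGAC, the Smad box, was searched on both strands (GTCTG on the other) and occurred in 42.2% of windows. It was found 2 times in the Id3 window and in none of the other 5. The longer word CAGACA, which contains CAGAC, and CTTTGA, the core bound by TCF/LEF factors, occurred in 17.1% and 13.8% of windows on either strand and in none of the 6. A match describes letters in these windows and is no evidence of binding, and Bmp2, Bmp7, Id1 and Smad7 were not searched.

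Of 26987 barcodes, 23346 passed the limits of 100 genes or more and of mitochondrial UMIs under 15% and were kept as cells. Glands held 650301 to 6994504 UMIs, and the median number of UMIs per cell was 2892 (control) and 1570 (double mutant) at P40, and 1341 (control) and 766.5 (double mutant) at P90. Only 14 barcode sequences occurred in more than 1 library, at most 1 for any pair. In 2 double-mutant glands, replicate 1 at P40 and replicate 5 at P90, Xist and Y-linked UMIs went against the sex on the label. Both are of batch B11 by their titles and mismatch in opposite directions, the first being labeled male and the second female. These genes do not check the stage on the 2 labels, which the stage comparisons take as given. The main calls are also given without both. Replicate 4 of the double mutants at P90, with 8.71% ribosomal UMIs, was left out of sub-clusters by the study for its ribosomal genes and is treated likewise.

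The targeted gene, Bmpr1a (mm10 chromosome 14, 34410734 to 34503341), was detected in every gland. Its level, as UMIs scaled to a common library total (counts per 1e+06 UMIs, CPM), lay between 9.87 and 26.2 CPM in controls at P40 (median 13.3) and between 13.7 and 46.6 CPM in double mutants of that age (median 22.1). At P90 controls lay between 9.50 and 23.6 CPM (median 19.9), and double mutants between 8.91 and 46.2 CPM (median 21.8). The 4 groups overlapped, and the gene did not separate the genotypes. The counts are per gene and come from the 3′ end of transcripts, so they show neither the allele nor the exon a transcript came from and check neither the label nor recombination.

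To ask how the genotypes differed, UMIs were summed per gland, and the 26 sums were compared by edgeR's quasi-likelihood test with sex and stage as covariates, TMM scaling and Benjamini-Hochberg adjustment over 10940 genes. In gland sums, more cells of an expressing type cannot be told apart from more RNA per cell. Of the 10 genes, 7 were higher and 1 was lower in double-mutant glands at an adjusted p below 0.05, against 21.9% of all genes called, 14.5% higher and 7.39% lower. All 3 ligands, Id1, Id3 and both inhibitory Smads rose, Id2 fell on this scale, and both receptors did not pass the test. Scaled by library size without TMM, the median of all genes moved from 0.02 to 0.69 on the log2 scale, so that the differences here are relative to the bulk of genes, and the share of calls that were higher moved from 66.2% to 99.1%.

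Among the ligands, Bmp2, which drives differentiation in many epithelia and bone, ran from 0 to 4.69 CPM (median 0.453) in the 12 control glands and from 0.307 to 38.6 CPM (median 8.12) in the 14 double-mutant glands. The groups overlapped, but 9 double-mutant glands lay above every control gland and 13 above the control median. The fitted difference was a log2 fold change of 2.66 ± 0.55 (SE), or 6.31-fold (adjusted p = 0.00189). Bmp4, a mesenchymal ligand of branching glands, ran from 0 to 2.15 CPM (median 0.592) in control and from 0.255 to 46.3 CPM (median 9.77) in double-mutant glands. Of the 14 double-mutant glands, 11 lay above every control gland. Bmp4 rose by 2.98 ± 0.59 on the log2 scale, 7.90-fold (adjusted p = 0.00142). These folds rest on few molecules, 29 Bmp2 and 25 Bmp4 UMIs over all control glands against 198 and 213 in double-mutant glands, and 1 and 3 control glands were at 0, so that the fitted sizes depend on the prior count. Bmp7, a ligand of epithelia and kidney, ran from 0.143 to 4.70 CPM (median 0.894) in control and from 0.841 to 30.4 CPM (median 3.38) in double-mutant glands. It rose by 1.30 ± 0.39 on the log2 scale, 2.47-fold (adjusted p = 0.0192), with 13 of 14 double-mutant glands above the control median and 6 above every control gland.

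Neither receptor passed the test. Bmpr1a differed by −0.20 ± 0.12 on the log2 scale (95% interval −0.43 to 0.03, adjusted p = 0.206), and its sign turned to 0.47 with library size alone. Bmpr2, the type II receptor, ran from 11.9 to 28.2 CPM (median 17.6) in control and from 17.4 to 66.5 CPM (median 31.0) in double-mutant glands. Although 8 of 14 double-mutant glands lay above every control gland in CPM, the TMM-scaled difference was 0.20 ± 0.12 (interval −0.04 to 0.43, adjusted p = 0.239), and with library size alone it was 0.91 (adjusted p = 0.00283).

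The response genes moved apart. Id1 ran from 1.43 to 50.8 CPM (median 14.3) in control and from 9.16 to 250.5 CPM (median 81.0) in double-mutant glands, and 9 of 14 double-mutant glands lay above every control gland. It rose by 1.42 ± 0.39 on the log2 scale, 2.67-fold (adjusted p = 0.0123). Id3 ran from 7.44 to 131.2 CPM (median 32.4) in control and from 29.0 to 573.4 CPM (median 153.4) in double-mutant glands. It rose by 1.22 ± 0.34, 2.33-fold (adjusted p = 0.0145), with 13 of 14 double-mutant glands above the control median. Id2, the most abundant of the 10 in UMIs, ran from 254.7 to 580.2 CPM (median 459.7) in control and from 242.1 to 696.2 CPM (median 397.0) in double-mutant glands. The ranges nearly coincided, with 2 double-mutant glands above and 3 below every control gland. With TMM, Id2 fell by 0.80 ± 0.17 on the log2 scale, or 1.74-fold (adjusted p = 0.00238), whereas with library size alone its difference was −0.12 (adjusted p = 0.556).

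Both inhibitory Smads rose. Smad6, which blocks BMP type I receptors and competes for Smad1, ran from 0 to 2.10 CPM (median 0.689) in control and from 0.307 to 24.6 CPM (median 3.83) in double-mutant glands. Its difference was 2.05 ± 0.54 on the log2 scale, 4.15-fold (adjusted p = 0.00975), from 25 UMIs in control glands, 3 of which were at 0, and 112 in double-mutant glands. Smad7, an inhibitor of both BMP and TGF-β receptors, ran from 3.98 to 24.1 CPM (median 7.85) in control and from 6.36 to 101.2 CPM (median 29.9) in double-mutant glands. It rose by 1.09 ± 0.25, 2.13-fold (adjusted p = 0.00417), and 13 of 14 double-mutant glands lay above the control median.

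Double-mutant glands differed widely among themselves, and the same glands were often at the end of the range. Replicate 3 at P40 had the lowest level of its group for 9 of the 10 genes and replicate 7 at P90 for 8 of 10. These were also the deepest double-mutant libraries of their stages, with 6512411 and 3928909 UMIs, and held 0 and 2 cells of the cancer stem cell-like population described next. Whether depth or composition set these levels was not tested.

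**Figure D1:**
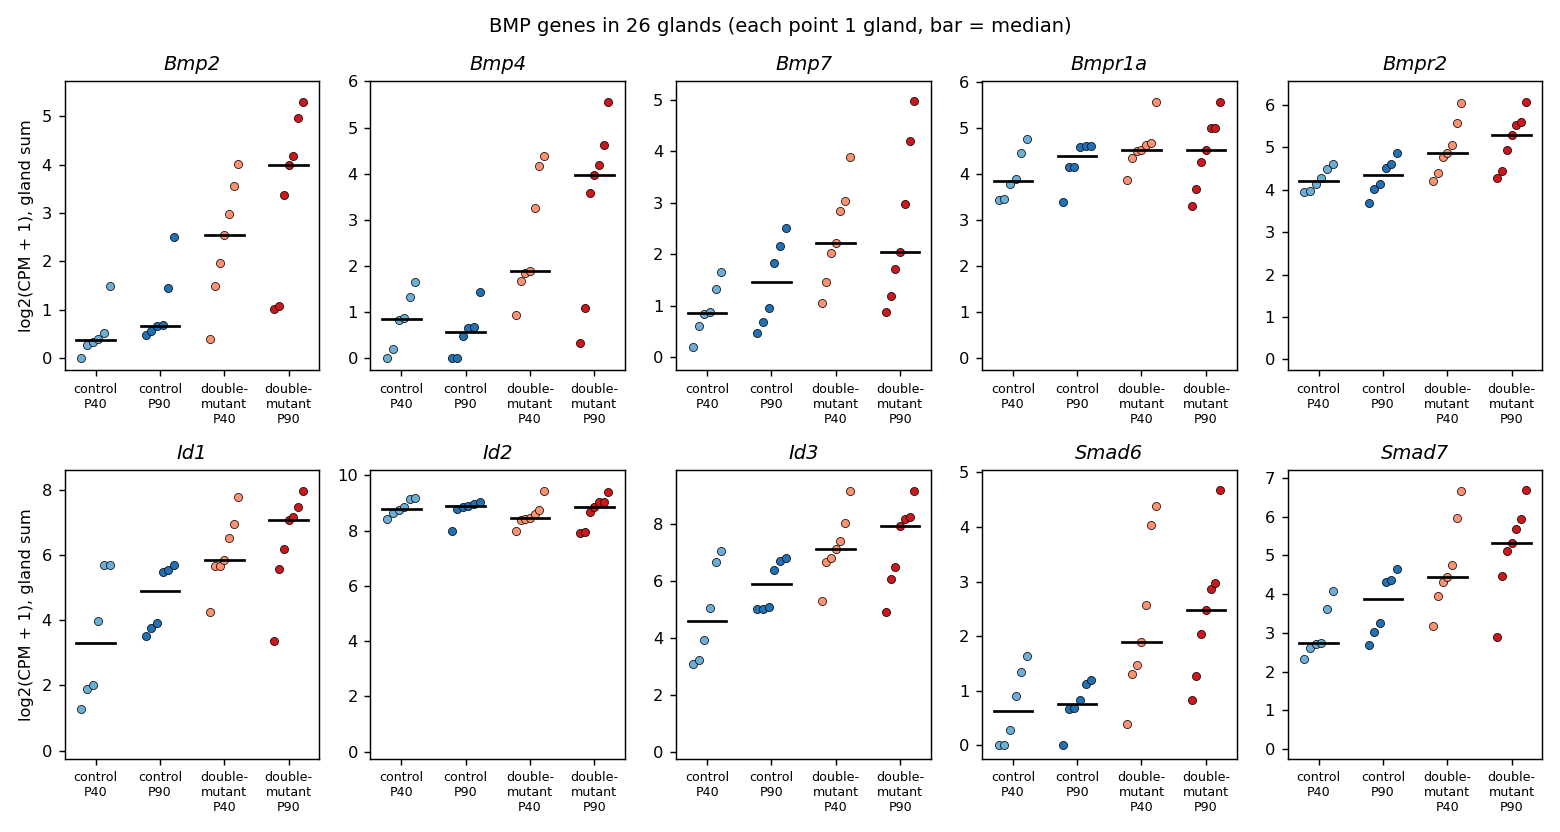
Level of each gene as log2(CPM + 1) of the gland sum on the vertical axis, for control and double-mutant glands at P40 and P90 (each point 1 gland, bar the median). The groups overlap in all 10 genes, and in each of them at least 2 of the 14 double-mutant glands, and up to 11 for Bmp4, lie above every control gland.

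Within batches holding both genotypes (B8, B9, B12, B13 and B14, the processing batches named in the titles), with batch in place of stage, 5 of the genes passed. The share of all genes called is not given for this fit or for the others of this paragraph, so their counts are not set against it. Bmp2 differed by 3.55 ± 0.59 on the log2 scale (adjusted p = 0.00188), Bmp4 by 3.16 ± 0.74 (adjusted p = 0.011), Id1 by 1.78 ± 0.47 (adjusted p = 0.0186), Id3 by 1.42 ± 0.41 (adjusted p = 0.024) and Smad7 by 1.28 ± 0.30 (adjusted p = 0.0101). Id2 (−0.73, adjusted p = 0.0535) and Smad6 (1.84, adjusted p = 0.0816) kept their direction without passing, and Bmp7 did not pass the filter on low counts. Without both glands whose sex genes went against the label, 7 of the genes passed over 24 glands and Bmp7 was filtered out, and without replicate 4 of the double mutants at P90 all 8 passed. Id2 at P40 passed in both (−1.05 and −1.04, adjusted p = 0.0369 and 0.0317).

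By stage, a fit of the 4 groups with sex as covariate called 1 of 10 genes at P40, as lower, where 1.37% of all genes were called and 0.064% as lower. It called 2 of 10 at P90, both as higher, where 8.15% were called and 5.46% as higher. At P40 Id2 fell by 1.03 ± 0.24 on the log2 scale (adjusted p = 0.0289; −0.24 and adjusted p = 0.422 with library size alone), with 6 of 7 double-mutant glands below the control median. Bmp2 (2.64 ± 0.82, adjusted p = 0.0882), Bmp4 (2.38 ± 0.78, adjusted p = 0.0993) and Smad7 (1.21 ± 0.36, adjusted p = 0.0773) did not pass at P40, although 6, 6 and 5 of 7 double-mutant glands lay above every control gland of that stage. Bmp7 (1.48), Id1 (1.38), Id3 (1.26) and Smad6 (1.99) did not pass there either (adjusted p from 0.134 to 0.168), nor did Bmpr1a (−0.10) and Bmpr2 (0.03). At P90 Bmp2 rose by 2.67 ± 0.77 (adjusted p = 0.0342) and Bmp4 by 3.85 ± 0.92 (adjusted p = 0.0131), each with 5 of 7 double-mutant glands above every control gland. The Bmp2 call was lost without the glands with sex genes against the label (2.67, adjusted p = 0.0686) and without replicate 4 of the double mutants (2.29, adjusted p = 0.0595), whereas Bmp4 passed in both (3.61 and 3.70, adjusted p = 0.0374 and 0.0183). At P90 the other 8 genes did not pass, with Smad6 at 2.14, Id1 at 1.46, Id3 at 1.18, Bmp7 at 1.124, Smad7 at 0.98, Bmpr2 at 0.37, Bmpr1a at −0.30 and Id2 at −0.57 (adjusted p from 0.0877 to 0.245).

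The genotype difference itself did not change detectably with stage. Of the 10 genes, 0 passed the test of P90 minus P40, where 0.00914% of genes were called, and 0 had an unadjusted p below 0.05. For Bmp4 the difference of differences was 1.48 ± 1.26 on the log2 scale and for Id2 0.46 ± 0.33, intervals (−1.0 to 3.95 and −0.19 to 1.11) that leave room for sizeable changes. Between P90 and P40 within double-mutant glands 0 of the genes passed (0.0% of all genes called) and 0 had an unadjusted p below 0.05, and within control glands 0 passed (5.06% of all genes called) and only Id2 had an unadjusted p below 0.05 (0.0397). DESeq2 called 0 of the 10 in these 3 comparisons. Without both glands whose sex genes went against the label, which carry different stage labels, 0 of the 9 genes tested passed in each of the 3. Control glands of the 2 stages shared no batch, so batch and stage cannot be separated in the last of these.

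To see which cells carried the transcripts, cells of all glands were clustered, and a cluster was named X-like when at least 3 of its listed markers stood out. It was left unnamed, and called by its leading gene, when markers of another type led its top genes or stood clearly higher. The unnamed Gm23935-led, Gm12873-led and Lrg1-led clusters each had 5 acinar markers that stood out. These levels are a description with no test, since clusters were formed from the same cells, although the 10 genes were held out of the clustering. The cancer stem cell-like (CSC-like) population comprised 334 cells in which the Wnt-pathway genes Axin2, Wif1, Dkk2, Dkk4, Notum and Nkd1 and the growth factor Ptn stood out. Of these, 330 came from 13 of the 14 double-mutant glands and 4 from control glands. Their share of a gland's cells averaged 2.59% ± 2.32 in double mutants (SD, n = 14) and 0.0386% ± 0.0728 in controls (SD, n = 12).

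Bmp2 and Bmp4 had their highest level in CSC-like cells. In the 9 double-mutant glands with at least 10 such cells, Bmp2 ran from 129 to 971 CPM (median 464; 466.5 ± 258.7, SD) and Bmp4 from 161 to 971 CPM (median 566; 546 ± 295, SD). Each of these 9 glands had UMIs of both. The next populations for Bmp2 were a cluster led by Rgs5 with 66.6 CPM (17 UMIs), fibroblast-like cells with 20.5 CPM (10 UMIs) and myeloid-like cells with 10.2 CPM (26 UMIs), all over pooled cells, where CSC-like cells had 490.1 CPM (counting interval 415.6 to 574.3). For Bmp4 the next were fibroblast-like cells with 86.0 CPM and endothelial-like cells with 11.3 CPM, against 515.8 CPM in CSC-like cells. In the 6505 acinar-like cells 0 UMIs of Bmp2 and 0 of Bmp4 were counted, whose upper counting limit is 0.104 CPM.

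CSC-like cells held 77.3% of the Bmp2, 75.6% of the Bmp4 and 39.5% of the Bmp7 UMIs of double-mutant glands, while they were 2.62% of their cells. Leaving out 1 double-mutant gland at a time, these shares stayed between 75.7% and 78.9%, 71.6% and 77.9%, and 35.0% and 41.9%. Without both glands with sex genes against the label, 241 of the 330 cells were left, the shares were 75.7%, 73.7% and 36.8%, and Bmp2 and Bmp4 ran from 129 to 971 CPM (median 484) and from 161 to 971 CPM (median 566) over 7 glands. In control glands, myeloid-like cells held 55.2% of the 29 Bmp2 UMIs. Bmp7 had 157.0 CPM in CSC-like cells and 38.8 CPM in basal-like cells, and basal-like cells held 29.4% of its UMIs over all glands.

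**Figure D2:**
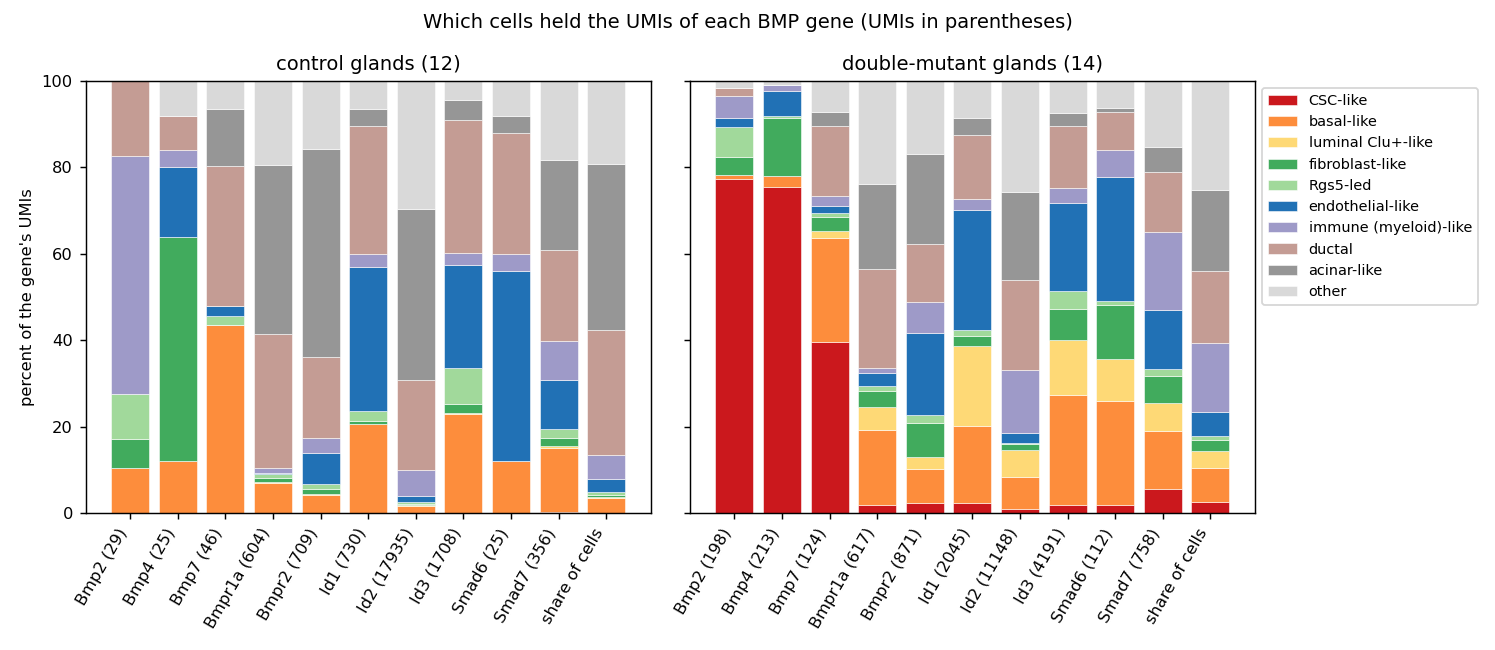
Percent of each gene's UMIs (vertical axis) held by each population in the 12 control and the 14 double-mutant glands, with the number of UMIs in parentheses and the share of cells as the last bar. In double-mutant glands CSC-like cells hold most Bmp2 and Bmp4 UMIs (77.3% and 75.6%), while Id1, Id3 and Smad6 UMIs are spread over several populations, the largest shares being those of endothelial-like cells (27.8%, 20.3% and 28.6%) and basal-like cells (17.8%, 25.4% and 24.1%).

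Within CSC-like cells, sub-clusters separated 201 cells with the basal keratins Krt5, Krt14 and Krt17 and Trp63 (CSC-like A) from 63 cells with the luminal keratins Krt7, Krt8 and Krt18 (CSC-like B), names set after the clusters were seen. Bmp2 had 615.0 CPM (counting interval 507.8 to 738.3) in A and 190.8 CPM (101.6 to 326.2) in B, and Bmp4 had 689.9 CPM (576.0 to 819.8) and 220.1 CPM (123.2 to 363.0). The counting intervals of A and B did not overlap for these ligands, but they cover counting error only, and 2 glands alone had at least 10 cells of B. Bmp7 was at 165.8 CPM in A and 132.1 CPM in B, and Smad7 at 117.7 and 234.8 CPM, with overlapping intervals.

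Receptors and response genes were placed elsewhere. Bmpr1a was highest in basal-like cells at 114.9 CPM, followed by myoepithelial-like (95.9 CPM) and fibroblast-like cells (59.4 CPM), and CSC-like cells had 38 CPM. Across glands these levels spread as widely as they differed, with 113.2 ± 84.8 CPM (SD, n = 21) in basal-like and 117.8 ± 108.2 CPM (SD, n = 14) in myoepithelial-like cells. Within basal-like cells, in which K14-Cre is active, Bmpr1a ran from 0 to 145 CPM (84.4 ± 41.7, SD, n = 8) in control and from 0 to 406 CPM (131 ± 100, SD, n = 13) in double-mutant glands. Counts of Bmpr1a were thus present in basal-like cells of double-mutant glands, and the gene was too sparse there for a test. Bmpr2 was highest in fibroblast-like (157.7 CPM) and endothelial-like cells (153.3 CPM), which did not differ beyond their spread over glands.

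Id1 had its highest level in endothelial-like cells (571.7 CPM), then luminal Clu+-like (494.1 CPM), basal-like (400.4 CPM) and ductal progenitor-like cells (272.0 CPM), while CSC-like cells had 157.0 CPM. Id3 was highest in the Rgs5-led cluster (1238 CPM) and in basal-like cells (1131 CPM), ahead of endothelial-like cells (884.0 CPM). Neighbours in both orders differed by less than their spread over glands, which was 378.1 CPM (SD, n = 22) for Id1 in endothelial-like cells and 459.2 CPM (SD, n = 21) for Id3 in basal-like cells. Id2 followed another order, with ductal progenitor-like cells at 1209 CPM, myeloid-like cells at 1061 CPM and luminal Clu+-like cells at 972.5 CPM, and it was present in every population. Thus the population with most Bmp2 and Bmp4 was not the one with most Id1, Id2 or Id3. By pooled level, Smad6 was highest in endothelial-like (30.2 CPM), fibroblast-like (28.7 CPM) and basal-like cells (23.3 CPM). Smad7 was highest in CSC-like (141.0 CPM), T/NK-like (121.1 CPM), basal-like (119.5 CPM) and fibroblast-like cells (112.7 CPM). Both orders lay within the spread over glands. Smad6 averaged 44.1 ± 61.4 CPM (SD, n = 22) in endothelial-like cells. Smad7 averaged 139.1 ± 72.2 CPM (SD, n = 9) in CSC-like cells, below Rgs5-led (204.0 ± 247.9, n = 7), T/NK-like (181.1 ± 150.6, n = 16) and endothelial-like cells (160.8 ± 143.0, n = 22).

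**Figure D3:**
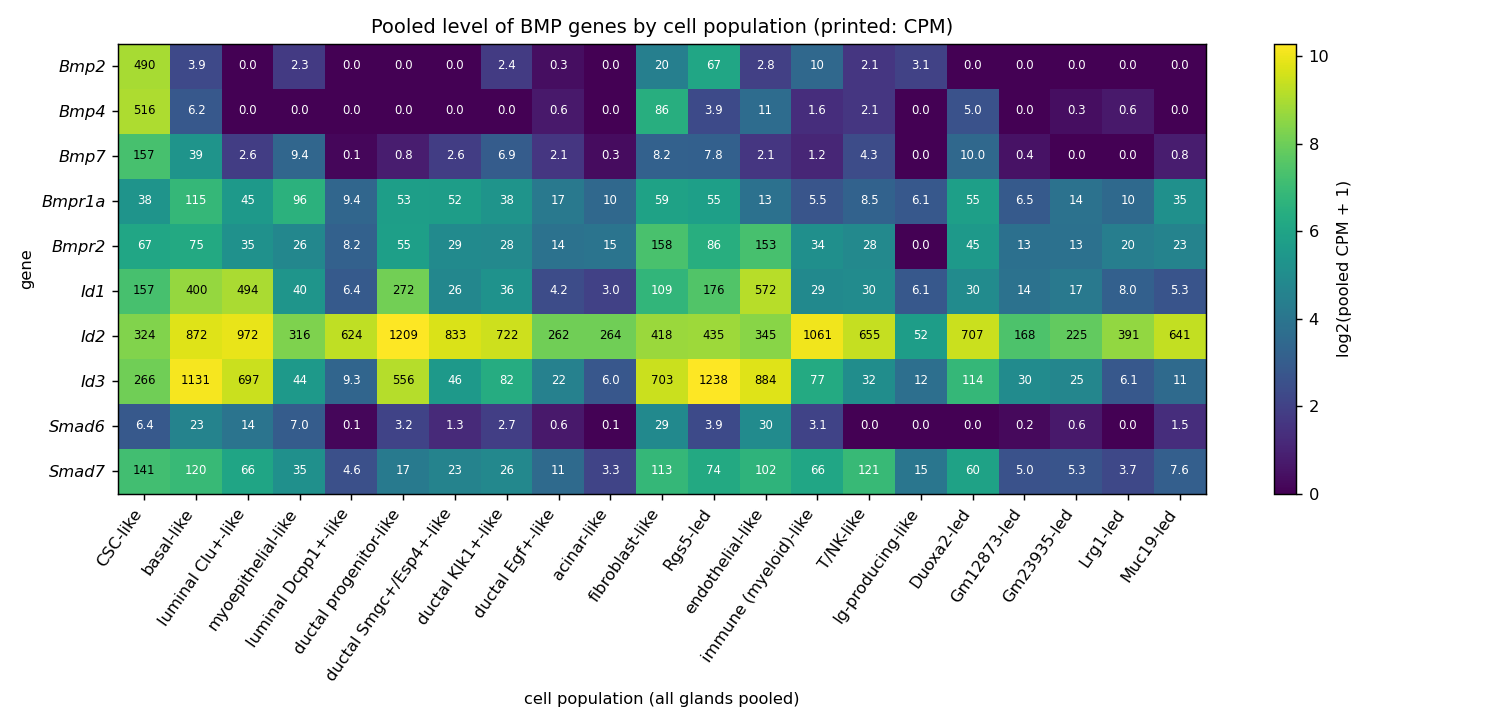
Pooled level of each gene (rows) in each population (columns, all glands pooled), as CPM printed in the cells and log2(CPM + 1) in color. Bmp2 and Bmp4 stand out in CSC-like cells (490.1 and 515.8 CPM), whereas Id1 and Id3 are high in basal-like, luminal Clu+-like and endothelial-like cells.

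Basal-like cells held a sub-cluster of 523 cells (basal-like B), 95.2% of them from double-mutant glands, with Krt5, Krt17 and Trp63. Another of 573 cells (basal-like A) came to 44.3% from double-mutant glands. Of the listed tumor genes, Wif1, Sparc, Bgn and S100a6 stood out in B and Ptn in A, and Serpine2 and Snai2 in neither. In basal-like B, Id3 had 1567 CPM (counting interval 1450 to 1691), Id2 1190 CPM, Id1 536.6 CPM and Bmpr1a 185.2 CPM (146.4 to 231.1). In basal-like A these were 860.2 CPM (790.5 to 934.4), 656.3 CPM, 322.0 CPM and 76.7 CPM (56.9 to 101.1). Basal-like B thus had the higher pooled level of all 3 Id genes, although A and B were formed from these cells and their difference was not tested.

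The makeup of the glands also differed. Basal-like cells made up 3.35% ± 3.14 of the cells of control and 7.95% ± 6.4 of double-mutant glands, luminal Clu+-like cells 0.204% ± 0.121 and 4.03% ± 3.01, endothelial-like cells 2.84% ± 2.6 and 5.77% ± 3.39, and fibroblast-like cells 0.605% ± 0.339 and 2.65% ± 1.41 (SD, n = 12 and 14). Ductal progenitor-like cells, which had the highest Id2 level and held 345 of 2775 Id1 and 706 of 5899 Id3 UMIs, were 4.36% ± 2.71 and 3.31% ± 1.92. Acinar-like cells were 38.4% ± 13.6 and 18.9% ± 13.1. They had low Id1 and Id3 (2.98 and 5.98 CPM), but by their number held the largest share of any population of Id2 (32.3%), Bmpr1a (29.2%) and Bmpr2 UMIs (33.0%). The part of these shares in the gland differences was not tested beyond the sums that follow.

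The gland sums were formed again without some populations, a choice made after seeing the data. Without CSC-like cells 5 of the genes passed, and the share of all genes called is not given for these sums. Bmp2 and Bmp4 no longer passed the filter, with 45 and 52 UMIs left in double-mutant glands and medians of 1.58 and 1.90 CPM against 0.453 and 0.592 CPM in control glands. Bmp7 was at 0.58 ± 0.39 on the log2 scale (adjusted p = 0.288). Id1 (1.44, adjusted p = 0.0108), Id3 (1.26, adjusted p = 0.0124), Smad6 (2.06, adjusted p = 0.00906) and Smad7 (1.05, adjusted p = 0.00434) stayed higher in double-mutant glands by nearly the same size as with these cells.

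Without CSC-like, basal-like and luminal Clu+-like cells, Id1 (1.17, adjusted p = 0.0227), Id3 (1.02, adjusted p = 0.032) and Smad7 (1.13, adjusted p = 0.00272) still passed. Bmpr1a then passed as lower in double-mutant glands (−0.40 ± 0.12, adjusted p = 0.0215), a call that did not stand with all cells, and Smad6 and the ligands were filtered out. Without endothelial-like, fibroblast-like and Rgs5-led cells, Bmp2 (2.83, adjusted p = 0.00363), Bmp4 (4.23, adjusted p = 0.00082), Bmp7 (1.36, adjusted p = 0.0223), Id1 (1.6, adjusted p = 0.0138) and Id3 (1.37, adjusted p = 0.0109) passed, and Bmpr2 was at −0.12.

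**Figure D4:**
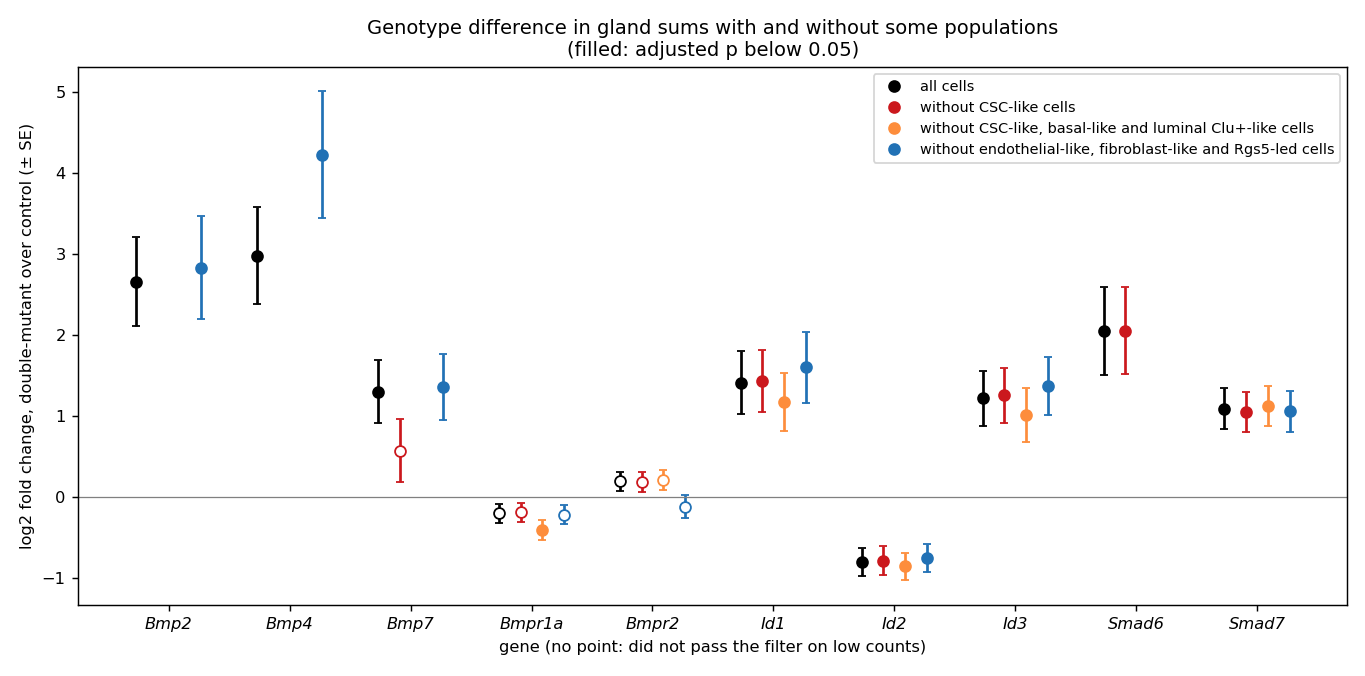
Log2 fold change of double-mutant over control glands with its SE (vertical axis) for each gene, from sums over all cells and from sums without the populations named in the key (filled points: adjusted p below 0.05). Without CSC-like cells Bmp2 and Bmp4 have no point because they no longer pass the filter, and Bmp7 falls from 1.30 to 0.58, while Id1, Id3, Smad6 and Smad7 stay above 1.

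Genotypes were next compared within populations, over glands with at least 10 cells of a population, in the 14 populations with at least 3 such glands per genotype. CSC-like, luminal Clu+-like and fibroblast-like cells could not be compared, since too few control glands had 10 of them. The ligands, Smad6 and Smad7 passed the filter in none of the 14, so the gland-level rises of these 5 genes have no counterpart test within a population. The tests of the 10 genes within populations were 13 of Id2, 4 of Id3, 3 of Id1, 2 of Bmpr2 and 1 of Bmpr1a. Of these, 4 passed, against 2.28% of all gene and population pairs, and all 4 were Id2.

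Id2 was tested in 13 populations and was below 0 in 12. It fell in acinar-like cells by 0.67 ± 0.18 on the log2 scale (adjusted p = 0.0481, where 1.42% of genes were called), in myeloid-like cells by 0.85 ± 0.18 (adjusted p = 0.00328, 10.7% of genes called), in luminal Dcpp1+-like cells by 1.18 ± 0.27 (adjusted p = 0.0233, 1.01%) and in a cluster led by Gm23935 by 0.96 ± 0.23 (adjusted p = 0.0176, 4.27%), with TMM. With library size alone 0 of these passed. The call in luminal Dcpp1+-like cells was lost in 3 of 5 fits that left out 1 control gland (without replicates 4 or 6 at P40 or replicate 3 at P90, adjusted p = 0.0821, 0.118 and 0.102), and that in acinar-like cells without both glands with sex genes against the label (−0.67, adjusted p = 0.0707). In ductal Klk1+-like and Smgc+/Esp4+-like cells, where 1.67% and 1.45% of genes were called, Id2 was at −0.46 ± 0.18 and −0.67 ± 0.21 without passing. Basal-like cells were the exception in sign, at 0.46 ± 0.21 (adjusted p = 0.158). Their Id2 level ran from 499.6 to 822.2 CPM in 8 control glands and from 406.0 to 1707 CPM in 13 double-mutant glands.

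Id1 was tested in 3 populations and Id3 in 4, and 0 of these 7 tests passed, where 10.7% of genes were called in basal-like, 1.29% in ductal progenitor-like, 0.218% in Gm12873-led and 0.0% in endothelial-like cells. In basal-like cells Id1 ran from 75.1 to 459.3 CPM (median 364.5) in control and from 116.0 to 1122 CPM (median 484.0) in double-mutant glands, a difference of 0.50 ± 0.30 on the log2 scale (adjusted p = 0.289). Id3 there ran from 488.2 to 1211 CPM (median 920.7) and from 502.8 to 1801 CPM (median 1344), a difference of 0.54 ± 0.23 (adjusted p = 0.142). In endothelial-like cells, which K14-Cre is not designed to reach, Id1 differed by 0.28 ± 0.24 (interval −0.19 to 0.75, adjusted p = 0.646) and Id3 by 0.28 ± 0.18 (interval −0.07 to 0.63, adjusted p = 0.554). The endothelial-like differences were smaller than the 1.42 and 1.22 of the gland sums. The intervals of the gland sums (0.66 to 2.18 for Id1 and 0.55 to 1.89 for Id3) overlap those in endothelial-like cells. The 2 fits were scaled separately, and the gap between them was not tested.

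In basal-like A, the sub-cluster shared by both genotypes, Id3 was 1030 ± 286.5 CPM (SD, n = 8) in control and 631.4 ± 240.1 CPM (SD, n = 9) in double-mutant glands. The log2 difference was −0.51 ± 0.20 (unadjusted p = 0.0201, adjusted p = 0.424), with 0 of 401 genes called. Id1 (−0.15 ± 0.34) and Id2 (−0.16 ± 0.23) differed by less than their errors there. Within all basal-like cells Id3 thus had the opposite sign to that within basal-like A, and basal-like B, nearly all from double mutants, could not be compared between genotypes.

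**Figure D5:**
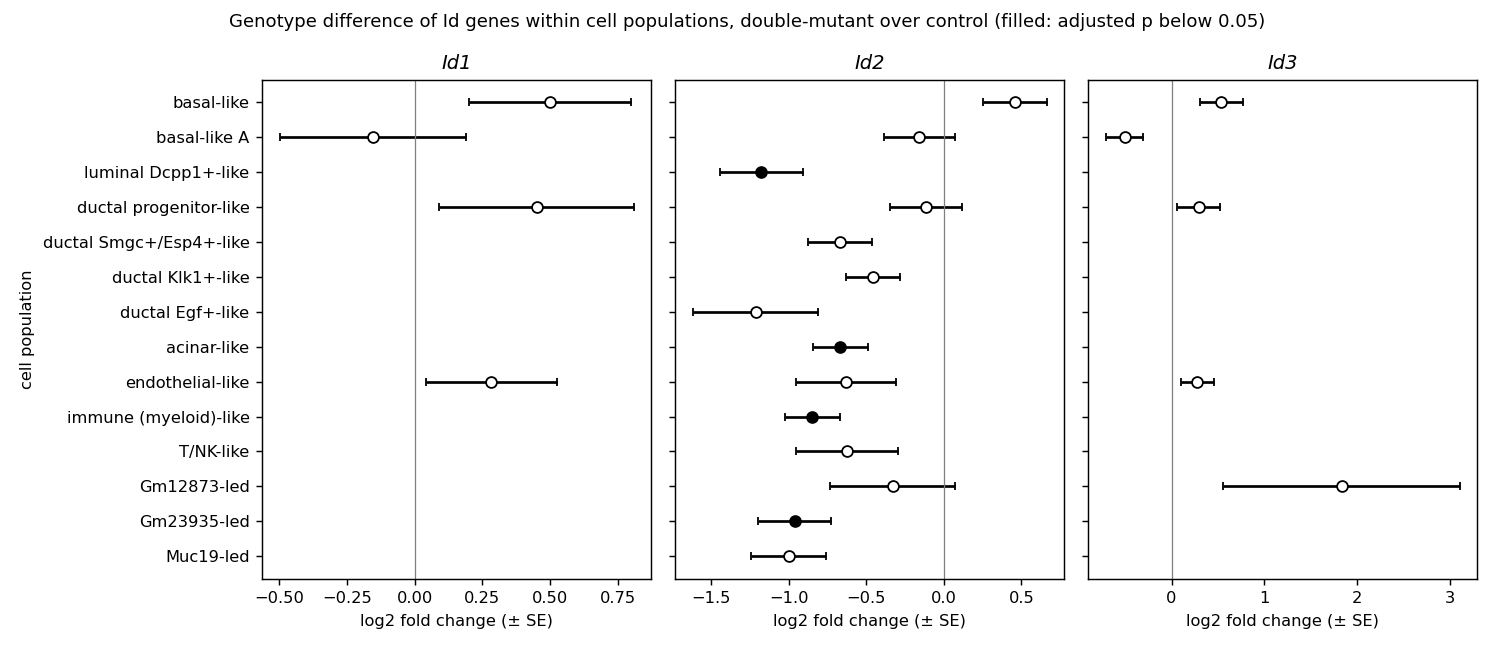
Log2 fold change of double-mutant over control (horizontal axis, ± SE) of Id1, Id2 and Id3 within each population tested (filled: adjusted p below 0.05). Id2 lies below 0 in all rows except basal-like cells and is filled in 4, whereas Id1 and Id3 have no filled point.

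Of the wider BMP pathway, 59 of 60 listed genes were in the tables and 33 passed the filter, of which 17 rose and 1 fell, where 14.5% of all genes were called higher and 7.39% lower. Without the 10 genes above, 23 of 49 were tested, 10 rose and 0 fell, with a median log2 difference of 0.72. Among secreted antagonists, which bind BMP ligands outside the cell, 4 of 7 tested rose. Sostdc1 rose by 2.99 ± 0.61 on the log2 scale (adjusted p = 0.00156) and Fst, follistatin, by 2.39 ± 0.46 (adjusted p = 0.00112), and Fstl1 (1.07, adjusted p = 0.0148) and Nbl1 (1.16, adjusted p = 0.0463) rose less. Within basal-like cells Sostdc1 (2.97 ± 0.46, adjusted p = 0.000183) and Fst (3.16 ± 0.53, adjusted p = 0.000303) were called as well, the members of the pathway list that passed within a population besides Id2 of the 10 genes.

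Among intracellular regulators, the Smad co-repressor Ski rose by 1.34 ± 0.24 (adjusted p = 0.000559), the signal-transducing Smad5 by 0.72 (adjusted p = 0.0112) and the ubiquitin ligase Smurf2 by 0.52 (adjusted p = 0.0319), whereas Smad1 and the shared Smad4 were at 0.06 and 0.05. The pseudoreceptor Bambi (1.27, adjusted p = 0.0178), the endothelial co-receptor Eng (1.29, adjusted p = 0.0198) and the response gene Id4 (1.09, adjusted p = 0.0356) also rose. Without both glands with sex genes against the label, 13 of the listed genes were called in place of 18, and Eng, Id4, Nbl1 and Smurf2 did not pass (adjusted p = 0.054, 0.0744, 0.105 and 0.0584). The type I receptor Acvr1, which can act in place of Bmpr1a, was at 0.84 (adjusted p = 0.0503) and did not pass.

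Across the 15 named populations, the genes whose pooled levels were most like each of the 10 were found by Pearson's r of log2(CPM + 10) among 12257 genes. The populations share libraries and differ in depth, and sparse ligands rest on 1 population, so the values are a description. Bmp2 was most like Pla2g2a (0.978), Ifitm1 and Tenm4 (both 0.959), and among the genes most like Bmp4 were the Wnt inhibitor Dkk2 (0.968) and Ifitm1 (0.943). Bmp7 was most like the Wnt transcription factor Lef1 (0.960), S100a14 (0.957) and the Wnt inhibitor Notum (0.956). Id1 and Id3 were most like each other (0.960), followed by Sos1 (0.916) and Rbm18 (0.915) for Id1 and Polk (0.943) and Ndrg1 (0.925) for Id3. The closest to Id2 were Ndfip2 (0.871), Nol11 (0.862) and Umps (0.856). Bmpr1a was most like the polarity gene Pard3 (0.974), Dag1 (0.943) and Fat1 (0.932), and Bmpr2 like Rab13 (0.933), Golga3 (0.926) and Btbd2 (0.921). Smad6 was most like Adamts1 (0.948), Pxdn (0.935) and Bok (0.929), and Smad7 like Acot9 (0.959), Ahctf1 (0.958) and Tpm4 (0.95).

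In the CITE-seq glands at P70, with 2 glands per genotype and no test, Bmp2 had 8.17 and 13.4 CPM in double-mutant and 0.572 and 1.36 CPM in control glands, from 1 to 9 UMIs each. Id1 had 56.3 and 47.7 CPM against 16.6 and 19.0 CPM, Id3 127.1 and 176.0 CPM against 76.1 and 92.5 CPM, and Smad7 30.9 and 40.3 CPM against 7.44 and 6.35 CPM. In each of these both double-mutant glands lay above both control glands, as did 57.5% of all genes with at least 10 UMIs. Id2 was likewise higher in CPM in both double-mutant glands (327.7 and 381.9 against 256.8 and 197.7 CPM). Smad6 (2.72 and 1.49 against 1.14 and 0.907 CPM, from 1 to 3 UMIs each), Bmp4 (7.26 and 2.98 against 2.29 and 1.36 CPM, from 2 to 8 UMIs) and Bmpr1a (16.3 and 16.4 against 12.6 and 14.96 CPM) were too. Bmpr2 (25.4 and 23.9 against 25.7 and 17.2 CPM) and Bmp7 did not separate the genotypes (6.35 and 1.49 against 3.43 and 3.17 CPM), and 1 of the control glands had sex genes against its label. Both double-mutant glands were labeled female and the controls 1 male and 1 female, so sex and genotype are partly mixed. The paper describes human cells spiked into these samples and later removed, and no step here filtered such cells.

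In bulk mRNA of whole undissociated glands, with 1 library per genotype, 34515744 reads were counted in the control and 34729551 in the double-mutant gland, and ratios compare these 2 libraries, which also differ in age. Read counts per length (TPM) gave 1 of the 10 genes past 2-fold, against 20.3% of genes with a read in both libraries and 1456 of the 13276 genes with at least 10 reads in both (7.46% of these 13276 lower), as all 10 had, and this was Bmp4, with 98 reads in the control and 36 in the double-mutant library (ratio 0.371, counting interval 0.242 to 0.540). It was thus lower in the bulk double-mutant gland, whereas gland sums of sorted cells were higher. Bmp2 had 10 and 11 reads (ratio 1.11, interval 0.421 to 2.87). The intervals given for bulk ratios are those of reads scaled by library total, whose ratio was 0.365 for Bmp4 and 1.09 for Bmp2. Bmpr1a had 7.37 TPM in the control and 4.01 TPM in the double-mutant library (ratio 0.545, interval 0.496 to 0.580) and Id2 had a ratio of 0.591, where the median log2 ratio of all genes was −0.271. Id1 (45 and 89 reads, ratio 1.995) and Id3 (65 and 127 reads, ratio 1.97) were close to 2-fold higher. Bmp7 (ratio 0.695, interval 0.511 to 0.915), Bmpr2 (0.714, interval 0.643 to 0.769), Smad6 (0.695, interval 0.419 to 1.11) and Smad7 (1.02, interval 0.709 to 1.43) were within 2-fold. The summed level of CSC markers was 2.88 TPM in the control and 17.4 TPM in the double-mutant library, that of fibroblast markers 94.5 and 88.8 TPM, and that of endothelial markers 11.6 and 9.59 TPM, and their part in the ratios was not tested.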

How the data were processed

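Drop-seq and CITE-seq reads were processed by the authors with Drop-seq tools against mm10 (GENCODE vM7 with Cre and EYFP added), and bulk reads with STAR and featureCounts, and the deposited values are raw counts, of UMIs per gene and barcode or of reads per gene. The 10 genes and the marker and pathway lists were chosen with earlier results of these data known. All 10 are named in the gland, stage, CITE-seq and bulk comparisons, pathway genes where they passed the test, and the 3 genes most like each, of which 1 is not reported here. Cells with 100 or more genes and under 15% of mitochondrial UMIs were kept, clustered on 2000 variable genes, 30 principal components and 20 neighbors by the Leiden method at resolution 1.0 (scanpy 1.11.5), and named from marker lists by a rule set after the clusters were seen. Doublets were left in and removed in an alternative. UMIs were summed per gland and compared with edgeR 4.0.16 (quasi-likelihood, filterByExpr, Benjamini-Hochberg, SE as log2 fold change over the square root of F), with DESeq2 1.42.0 as alternative. On simulated counts over 10940 genes, the 26-gland comparison recovered 23.9% of 1.5-fold, 73.1% of 2-fold and 98.5% of 4-fold changes. The changed genes were drawn only from those above a limit on mean CPM, so these shares do not describe the sparsest genes. CPM are counts per 1e+06 UMIs, and TPM the same per exonic length. Counting intervals are 95%, exact Poisson for pooled levels and exact binomial for bulk ratios, and cover counting error only. By the study's description each replicate is the cells of 1 gland of a mouse. Replicate numbers were checked for pairing: of 12 same-numbered pairs 3 had a correlation of deviations over 0.1 (−0.285 to 0.464), so they only name glands.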

Additional observations from a re-analysis of the deposited data

Results flagged for a closer look

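In groups of 4 to 10 glands, a gland was singled out when its gap to its neighbor exceeded Dixon's 95% limit, which chance does in about 1 of 20 groups. Of 40 pairs of gene and group, 8 were singled out. Among control glands, Bmp2 was 1.80 CPM in replicate 2 at P40 (next 0.430 CPM) and 4.69 CPM in replicate 1 at P90 (next 1.73 CPM), each from few UMIs. The same replicate 1 at P90 had 1.71 CPM of Bmp4 (next 0.595 CPM). Replicate 4 of the controls at P90 had the lowest Id2 of its group, 255.0 CPM against a next value of 436.0 CPM. Among double-mutant glands, replicate 2 at P40 stood above its group in Bmpr1a (46.6 CPM, next 24.6 CPM), Id2 (696.0 CPM, next 433.0 CPM) and Id3 (570.0 CPM, next 260.0 CPM). Replicate 5 of the double mutants at P90, whose sex genes went against its label, had 24.6 CPM of Smad6 against a next value of 6.82 CPM.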

How the results depend on the processing

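Over 26 glands, 8 of the genes were called by the main test, and the same 8 by DESeq2, without the filter, over all barcodes, and with the replicate number as a block (replicate block). With library size alone the count was also 8, but Id2 was lost and Bmpr2 gained, and 52.5% of all genes were called higher. The count was 5 within batches holding both genotypes, 4 with glands thinned to equal depth, 5 without CSC-like cells and 5 without CSC-like, basal-like and luminal Clu+-like cells. Thinning, the batch subset and the leaving out of cells reduce the counts, and ligands or Smad6 then failed the filter and gave no value. At P40 the count of 1 became 6 with library size alone, where 19.9% of all genes were called higher against 1.31% in the main test. It became 4 by DESeq2, 7 without the filter and 8 with the replicate block. The share of all genes called is not given for the settings other than library size, so their counts are not set against it. At P90 the count of 2 became 5 by DESeq2, 6 without the filter, 5 with the replicate block, 1 without the gland rich in ribosomal UMIs, 1 without the glands with sex genes against the label, 0 after thinning, 0 without CSC-like cells and 1 without CSC-like, basal-like and luminal Clu+-like cells. With the replicate block, 7 genes were thus higher and Id2 lower at P40, although replicate numbers did not pair the glands and 4 of 24 glands correlated best with their own number. The pathway count of 18 became 28 with library size alone, a setting that called 52.5% of all genes higher against 14.5% in the main test. It was 11 after thinning and 11 without CSC-like, basal-like and luminal Clu+-like cells. Within populations the 4 calls became 0 with library size alone, and lay between 3 and 6 in the other settings.

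Leaving out 1 gland at a time, the count over 26 glands was always 8 (adjusted p of Bmp7 up to 0.043), that at P40 ran from 0 to 6, that at P90 from 1 to 4, and that of the pathway from 15 to 20. Within populations 1 gland was left out only where a genotype had at most 5, in 9 settings, and the count ran from 3 to 4, the call lost being Id2 in luminal Dcpp1+-like cells. At P40 it was 6 without control replicate 2, 3 without double-mutant replicate 3, and 0 without double-mutant replicates 1, 2 or 5 or control replicates 3, 4, 5 or 6. At P90 it was 4 without double-mutant replicate 7, 3 without double-mutant replicate 5 of P40, and 1, Bmp4, without any of control replicates 2 to 6 and double-mutant replicates 2, 4, 5 and 6.

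The sign of Bmpr1a turned with library size alone, to 0.47 over all glands, 0.60 at P40 and 0.33 at P90. The sign of Bmpr2, which never passed with TMM, turned without endothelial-like, fibroblast-like and Rgs5-led cells (−0.12 over all glands, −0.37 at P40) and at P40 without the filter (−0.02), over all barcodes (−0.0032), without CSC-like cells (−0.0009) and among the single glands left out (−0.05 to 0.12). The Bmp4 difference between stages was −0.30 without endothelial-like, fibroblast-like and Rgs5-led cells. The causes were not tested. Among values of single genes under the other settings, 484 kept direction and side of the threshold, 35 lost it, 36 gained it and 9 turned sign. Sparse ligands limit what these depths show, since Bmp2, Bmp4, Bmp7 and Smad6 had 227, 238, 170 and 137 UMIs in all.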
